A study of Arabidopsis thaliana with 4 samples.

Results

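The square high-light regime (SQH) was compared with the fluctuating high-light regime (FLH) by the differentially methylated regions (DMRs) that separate them. All 6554 DMRs that the deposited comparison of these regimes lists were taken, out of 24806 in the 4 comparisons of the study. Both regimes gave Arabidopsis thaliana plants of the Col-0 accession a mean of 460 µmol m-2 s-1 and the same total light each day, for 22 d by the labels. SQH held one level from lights on to lights off. FLH copied a natural day, with a slow rise and fall and many peaks and dips between. DNA of 6 plants per regime, taken from the newest fully expanded leaves of well-watered plants grown from one parent's seed, was pooled into 1 library and read by whole genome bisulfite sequencing, in which unmethylated cytosines are read as thymines. A whole leaf mixes epidermal, mesophyll and vascular cells, so a methylation level is an average over cell types and over 6 plants. With 1 library per regime the spread between plants is not known and no difference was tested. Intervals below are 95% Wilson intervals for a share or a level and 95% Newcombe intervals for a difference. They cover counting error only, and are too narrow where one molecule was read at several cytosines or copied by PCR. A difference is FLH minus SQH, in percentage points, and a gain is a DMR with the higher level in FLH. The direction and the size of a difference are what the authors' caller selected on, so they are given as a description.

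In plants, cytosines are methylated in 3 sequence contexts. They are CpG, CpHpG and CpHpH, with H standing for any base but G. CpG methylation is copied at replication by MET1 and its VIM partners. It marks transposable elements (TEs) and also the bodies of many expressed genes. CpHpG methylation is maintained mainly by CMT3, which reads methylated histone H3, and is densest in silent TEs around the centromeres. CpHpH methylation is renewed by CMT2 in long heterochromatic TEs and by RNA-directed DNA methylation, which uses small RNAs and DRM2, at short TEs and TE edges on the chromosome arms. The DNA glycosylases ROS1, DML2 and DML3 remove methylation.

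Sequences are shown for the largest gain and the largest loss of each context among DMRs with a depth of 8 or more in each library (reads per cytosine), and for the DMRs in the 2 genes that the study follows most closely, MCCA and AT1G27880. All are the plus strand of the TAIR10.1 assembly, 150 bases each. Capitals mark the cytosines of the DMR's context, as C where the cytosine is on the printed strand and as G where it is opposite. The CpG gain was at chr5:15026255-15026404, between genes.
CpG gain: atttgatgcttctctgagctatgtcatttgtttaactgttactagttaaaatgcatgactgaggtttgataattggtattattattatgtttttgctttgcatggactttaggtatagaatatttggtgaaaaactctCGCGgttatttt
The CpG loss was at chr3:21718601-21718750, in the coding exon of AT3G58730, the gene for subunit D of the vacuolar H+-ATPase.
CpG loss: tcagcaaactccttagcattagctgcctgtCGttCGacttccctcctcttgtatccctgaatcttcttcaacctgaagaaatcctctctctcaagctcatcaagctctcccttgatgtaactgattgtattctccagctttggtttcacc
The CpHpG gain was at chr2:5715851-5716000, between genes and near the centromere.
CpHpG gain: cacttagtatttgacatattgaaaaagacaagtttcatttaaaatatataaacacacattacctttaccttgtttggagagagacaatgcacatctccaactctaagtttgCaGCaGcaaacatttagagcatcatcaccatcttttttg
The CpHpG loss was at chr3:15318851-15319000 in AT3TE62245, a copy of the Gypsy retrotransposon ATGP1.
CpHpG loss: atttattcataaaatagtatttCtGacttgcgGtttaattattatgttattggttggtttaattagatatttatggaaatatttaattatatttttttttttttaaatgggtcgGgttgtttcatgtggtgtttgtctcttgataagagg
The CpHpH gain was at chr1:19415251-19415400 in AT1TE64310, a RathE3_cons short element within 1 kb upstream of ATHB-15 (AT1G52150), which encodes a homeodomain transcription factor of vascular development.
CpHpH gain: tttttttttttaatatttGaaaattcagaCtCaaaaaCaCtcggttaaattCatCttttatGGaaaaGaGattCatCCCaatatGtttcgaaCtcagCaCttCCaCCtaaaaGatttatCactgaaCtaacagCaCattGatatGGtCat
The CpHpH loss was at chr1:19741501-19741650 in an intron of AT1G52990, within AT1TE65250, a copy of the Helitron ATREP2A.
CpHpH loss: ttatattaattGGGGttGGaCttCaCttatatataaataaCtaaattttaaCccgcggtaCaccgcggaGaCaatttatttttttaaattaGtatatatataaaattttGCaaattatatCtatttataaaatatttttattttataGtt
The MCCA (AT1G03090) DMR was a CpG loss in an intron, at chr1:743701-743850. MCCA encodes a subunit of methylcrotonyl-CoA carboxylase, a mitochondrial enzyme of leucine breakdown.
MCCA: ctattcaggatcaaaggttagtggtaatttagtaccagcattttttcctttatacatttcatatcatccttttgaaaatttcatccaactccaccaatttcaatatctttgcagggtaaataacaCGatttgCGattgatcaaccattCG
The AT1G27880 DMR was a CpG loss in an intron, at chr1:9712501-9712650.
AT1G27880: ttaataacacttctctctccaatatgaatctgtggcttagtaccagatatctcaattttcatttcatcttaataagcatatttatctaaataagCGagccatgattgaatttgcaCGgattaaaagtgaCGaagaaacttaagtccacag
The 4 CpG and CpHpG sequences at the top of their lists held 4 context cytosines each, which is the caller's minimum. The CpHpH sequences held 32 in the gain and 19 in the loss.

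FLH differed from SQH by context in opposite directions. CpHpG methylation was mostly higher in FLH, with 887 gains and 242 losses among 1129 DMRs (78.6% gains, interval 76.1 to 80.9). CpG and CpHpH leaned to losses. In CpG, 903 of 2130 DMRs were gains (42.4%, interval 40.3 to 44.5), and in CpHpH 1473 of 3295 (44.7%, interval 43.0 to 46.4). Over all contexts the directions were even, at 3263 gains and 3291 losses. DMRs were called in 150 bp bins, and the called shares of all bins with at least 4 cytosines were small. They were 0.153% for CpG gains and 0.211% for CpG losses, 0.146% for CpHpG gains and 0.0388% for CpHpG losses, and 0.197% for CpHpH gains and 0.248% for CpHpH losses. A DMR was 1 bin in 6307 of 6554 cases and at most 900 bp wide. DMRs wider than 1 bin were most frequent in CpHpH, at 5.09% of gains and 6.42% of losses.

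The levels on either side of a DMR differed by context. CpG gains went from a median of 58.1% in SQH to 84.6% in FLH, and CpG losses from 85.8% to 57.9%. CpHpG gains went from 28.6% to 56.2% and CpHpG losses from 54.2% to 24.2%. CpHpH gains went from 11.9% to 25.5% and CpHpH losses from 26.8% to 12.9%. The typical CpG DMR was therefore methylated in both regimes, and a switch from fully unmethylated to methylated DNA was rare. SQH had no methylated read in 22 CpG, 6 CpHpG and 5 CpHpH gains, and FLH in 33 CpG, 7 CpHpG and 10 CpHpH losses. At the other end, SQH was over 90% in 396 CpG losses and FLH in 277 CpG gains. Many differences lay close to the caller's minimum of 20 points for CpG and CpHpG and 10 points for CpHpH. Within 5 points of it were 48.6% of the CpG, 40.6% of the CpHpG and 71.4% of the CpHpH DMRs. The largest differences were 59.1 points in CpG, 73.5 in CpHpG and 41.5 in CpHpH.

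**Figure D1:**
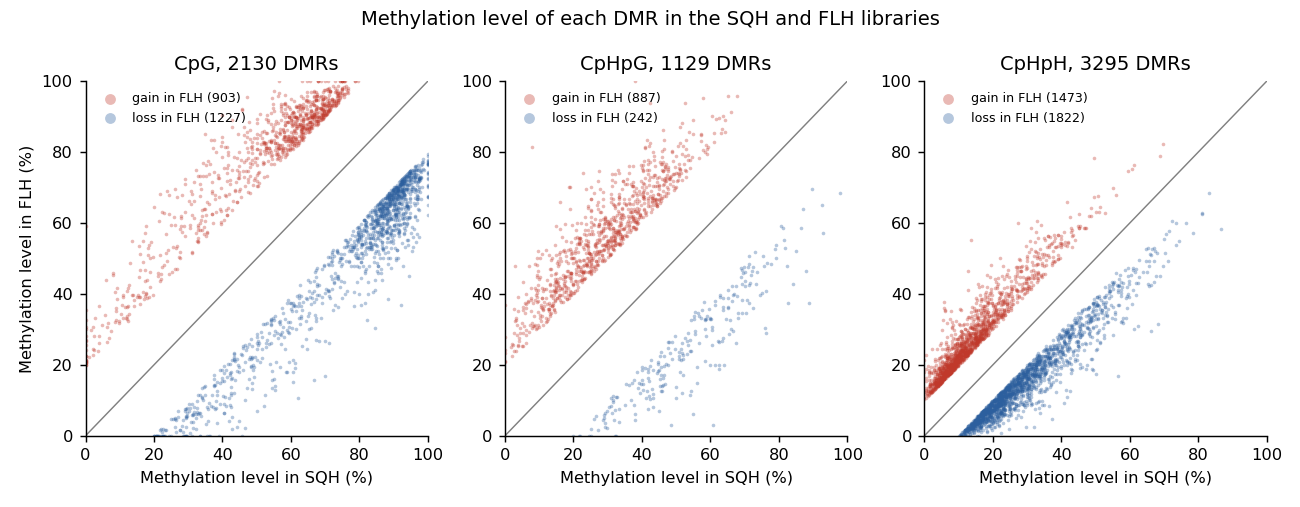
Methylation level of each DMR in SQH (x axis, percent) against FLH (y axis, percent), 1 panel per context and 1 point per DMR, with gains and losses in separate colours. The empty band along the diagonal is the caller's minimum difference, and CpHpG is the context whose points lie mostly above it (887 gains, 242 losses).

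Read depth limited these values. The median DMR held 67 reads in SQH and 70 in FLH for CpG, 77 in both for CpHpG, and 241 and 278 for CpHpH, summed over its cytosines. Per cytosine, the medians in SQH and FLH were 8.02 and 8.5 in CpG, 7.5 and 7.5 in CpHpG, and 6.94 and 8.15 in CpHpH. Each library had 8 reads per cytosine or more at 1744 DMRs. Depth moved with direction. FLH was the deeper library at 61.9% of the CpG gains and 50.7% of the CpG losses, at 45.7% of the CpHpG gains and 63.6% of the CpHpG losses, and at 63.2% of the CpHpH gains and 71.4% of the CpHpH losses. The part of depth in the direction was not tested.

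Pooled over DMRs, the cytosine make-up of CpHpG gains differed from that of CpHpG losses. CCG, the trinucleotide that also holds a CpG, made up 15.1% of the CpHpG cytosines in gains and 25.4% in losses, against 19.2% in the whole genome. CAG and CTG made up 42.4% and 42.5% in gains, 37.2% and 37.4% in losses, and 40.4% each in the genome. CpHpG gains and losses also differed in place and in class of TE, as given below, and the part of these was not tested. CpHpH DMRs held more CAA and CTA than the genome in both directions. CAA made up 19.8% of the cytosines in gains and 20.3% in losses (18.1% in the genome), and CTA 11.6% and 12.3% (10.02% in the genome). CTC was lower, at 9.64% in gains and 8.34% in losses against 10.6%. These DMRs were also the poorest in G and C, with a median GC content of 30.7% in gains and 30% in losses. CpG DMRs had 38.7% and 39.3%, CpHpG DMRs 40.7% and 38%, and the nuclear genome 36.0%. A bin needed at least 4 cytosines of its context to be called, and the GC content of all such bins was not counted. The order by context therefore has no base.

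The 5 largest differences of each context and direction, among DMRs with a depth of 8 or more in each library, ranged from 42.9 to 50.2 points for CpG gains and from 43.5 to 55.1 for CpG losses. At the CpG gain on chromosome 5 shown above, 15 of 43 SQH reads were methylated (34.9%) and 40 of 47 FLH reads (85.1%). The difference was 50.2 points (interval 30.6 to 64.8). AT1G51990, which encodes an O-methyltransferase family protein, had a gain in its coding exon, with 9 of 38 reads in SQH and 29 of 42 in FLH. The other 3 were near the centromeres. They were an intergenic bin at chr1:16606351-16606500 (7 of 35 and 42 of 65), the META1 Copia element AT4TE22180 (22 of 76 and 60 of 83) and the TNAT1A element AT2TE20880 (14 of 35 and 29 of 35).

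All 5 of the CpG losses were on the chromosome arms. In the coding exon of AT3G58730, 35 of 38 reads were methylated in SQH (92.1%) and 17 of 46 in FLH (37.0%), a difference of -55.1 points (interval -68.6 to -35.8). AT1TE82950, an ATREP10B Helitron in a promoter, went from 22 of 48 reads in SQH to 0 of 45 in FLH, which allows a level of up to 6.67% in FLH. The ATREP11A Helitron AT1TE61335, also in a promoter, went from 47 of 101 to 2 of 88. Both Helitrons were thus methylated at close to equal levels in SQH and nearly free of CpG methylation in FLH. The remaining pair lay in gene bodies. AT1G59780 had a loss in an intron that overlaps a TE (71 of 100 and 17 of 65), and AT3G59110 in a coding exon (53 of 66 and 28 of 76).

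The CpHpG gains at the top of the list lay between 40.9 and 44.6 points. The bin at chr2:5715851-5716000 went from 9 of 33 methylated reads in SQH to 23 of 32 in FLH. The ATHILA6A retrotransposon AT5TE41835 went from 6 of 40 to 32 of 54, and the HELITRON2 copy AT2TE24680 from 8 of 32 to 38 of 57. The promoter of AT4G03100 went from 28 of 87 to 51 of 69, and the short RathE1_cons element AT3TE36300 from 9 of 130 to 55 of 115. The CpHpG losses lay between 33.1 and 45.4 points, and 4 of 5 were in TEs. The ATGP1 copy AT3TE62245 went from 16 of 33 reads in SQH to 1 of 32 in FLH. The promoter of AT1G67580 went from 30 of 49 to 13 of 65. Copies of ATGP8 (AT3TE53165, 24 of 41 and 7 of 33), ATDNA2T9C (AT4TE30315, 26 of 37 and 18 of 52) and ATREP10D (AT3TE12270, 21 of 32 and 28 of 86) made up the rest.

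CpHpH gains reached 32.1 points and CpHpH losses 27.3 points in the same ranking. At the RathE3_cons element upstream of ATHB-15, 17 of 296 reads were methylated in SQH (5.74%) and 169 of 447 in FLH (37.8%). The promoter of AT3G46430 went from 18 of 278 to 99 of 311. The HELITRONY3A copy AT3TE38835 went from 107 of 637 to 268 of 636, and the ATTIR16T3A element AT4TE13910, in the promoter of AT4G05630, from 31 of 293 to 139 of 393. An intergenic bin at chr4:2415851-2416000 went from 35 of 338 to 137 of 383. Of the 5 gains, 3 were in TEs and 3 in promoters, and none was near a centromere. Among the losses, the ATREP2A copy in the intron of AT1G52990 went from 81 of 166 reads in SQH to 40 of 186 in FLH, and the ATREP5 copy AT2TE13805 from 69 of 280 to 6 of 333. LIMPET1 (AT1TE45425) went from 153 of 357 to 66 of 373, and ATREP3 (AT4TE01935) from 111 of 300 to 39 of 275. The only member of this set outside a TE was DIN2 (AT3G60140), a beta-glucosidase gene induced in the dark, with 208 of 561 reads methylated in SQH and 75 of 512 in FLH across a coding exon.

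Pericentromeric DNA was taken as the 500 kb windows with fewer than 0.5 times the median of 130 protein-coding genes, which cover 14.7% of the nuclear genome. They run from 13000001 to 17000000 on chromosome 1, 3500001 to 6500000 on chromosome 2, 11500001 to 15500000 on chromosome 3, 3000001 to 5500000 on chromosome 4 and 10000001 to 14000000 on chromosome 5 (TAIR10.1). They held 654 of the CpHpG DMRs (57.9%), 903 of the CpG DMRs (42.4%) and 624 of the CpHpH DMRs (18.9%). The CpG share depended on depth (8 reads per cytosine or more in each library), since 200 of the 811 CpG DMRs at that depth were in them (24.7%). The balance of gains and losses changed with position in CpHpG. Gains made up 83.5% of the CpHpG DMRs in these windows (interval 80.4 to 86.1) and 71.8% on the arms (interval 67.6 to 75.6). With distance from the windows the share went from 74.3% under 1 Mb away to 67.9% over 6 Mb away. CpHpH went the other way on the arms, from 40.1% gains under 1 Mb away to 49.5% over 6 Mb away, with 42.8% inside the windows. CpG gains were 39.6% inside the windows and 44.4% on the arms. CpHpG depth was 7.64 reads per cytosine in SQH and 7.33 in FLH inside the windows, and 7.5 and 7.9 on the arms. Its part in the difference was not tested.

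**Figure D2:**
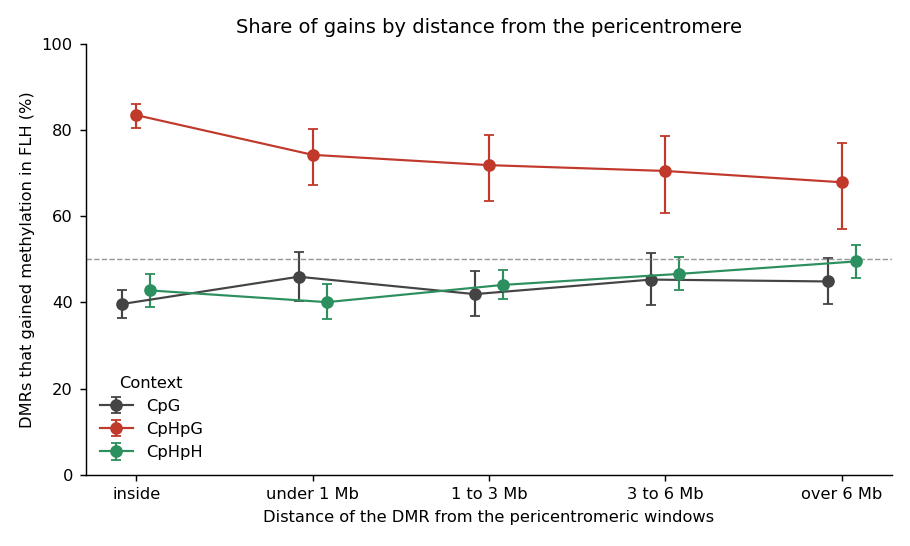
Share of DMRs that gain methylation in FLH (y axis, percent) by distance from the pericentromeric windows (x axis, classes of distance), for each context. Bars on the points are 95% Wilson intervals, which cover counting error only. CpHpG stays above 50% in every class and is highest inside the windows (83.5%).

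CpHpG had the highest share of gains on all 5 chromosomes, and gains were the minority in CpG and CpHpH on each. CpHpG gains made up 74.3% to 82.2% of the CpHpG DMRs by chromosome, CpG gains 38.6% to 45.5% and CpHpH gains 43.4% to 45.8%. Density varied more, with 13.0 CpG DMRs per Mb on chromosome 1 and 22.9 on chromosome 2. CpHpG ranged from 6.77 to 12.4 per Mb and CpHpH from 26.0 to 31.8. The CpG DMRs of the pericentromeric windows had a median level of 82% in SQH and 69.2% in FLH, against 61% and 59.7% on the arms.

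TEs carried most of the non-CpG DMRs by count. How many of all bins lie in TEs was not counted, so the shares below have no base. A TE was named at 78.3% of the CpHpG, 76.4% of the CpHpH and 52.6% of the CpG DMRs, and the CpG share was 36.0% where each library had 8 reads per cytosine or more. CpHpG gains were the majority in each of the classes of TE into which families were grouped. ATHILA, a group of long Gypsy retrotransposons frequent near the centromeres, had 245 gains in 282 CpHpG DMRs (86.9%). Copia retrotransposons had 81 in 97, ATGP Gypsy elements 52 in 61, ATLANTYS Gypsy elements 35 in 40, and VANDAL DNA transposons 74 in 93. ATREP Helitrons, which move by rolling-circle replication, had a lower share, with 37 gains in 60 (61.7%), and 5 in 12 inside the pericentromeric windows. Few CpHpG DMRs lay in SINE and RathE short elements, with 4 gains in 7.

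In CpHpH the classes of TE went in different directions. Gains led in ATLANTYS (22 of 29, 75.9%), ATHILA (91 of 145, 62.8%) and Copia (102 of 180, 56.7%). Losses led in ATREP Helitrons, the most numerous class, with 326 gains in 791 (41.2%). They also led in VANDAL (79 of 201, 39.3%), ATMU and ARNOLD Mutator-like elements (84 of 249, 33.7%) and SINE and RathE short elements (20 of 61, 32.8%). LINE retrotransposons had 71 gains in 156, ATGP 30 in 68 and HELITRON-named families 98 in 218. Within the pericentromeric windows the contrast was wider. ATHILA had 80 gains in 117 (68.4%, interval 59.5 to 76.1), and ATREP had 25 in 101 (24.8%, interval 17.4 to 33.99). On the arms, ATREP had 301 gains in 690 (43.6%) and ATHILA 11 in 28. The ATHILA gains went from a median of 8.01% in SQH to 19.4% in FLH and the ATREP gains from 13.4% to 27.3%. Depth differed between these sets, at 6.73 reads per cytosine in SQH and 6.34 in FLH for the ATHILA gains and 6.90 and 9.07 for the ATREP gains, and its part was not tested.

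**Figure D3:**
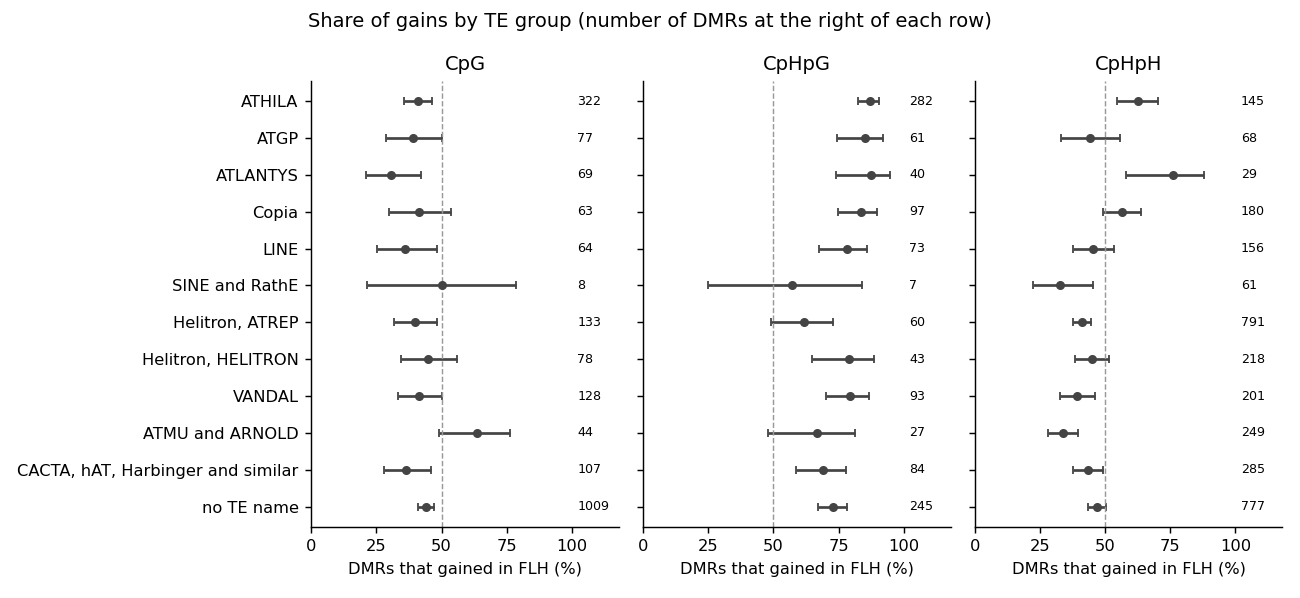
Share of DMRs that gain methylation in FLH (x axis, percent) for each group of TEs (y axis), 1 panel per context, with 95% Wilson intervals for counting error. In CpHpH the retrotransposons ATHILA (62.8%) and ATLANTYS (75.9%) stand above 50% and ATREP Helitrons (41.2%) below it, whereas in CpHpG both ATHILA (86.9%) and ATREP (61.7%) stand above it.

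In CpG, the TE classes mostly leaned to losses. ATHILA had 132 gains in 322 CpG DMRs (41.0%), ATREP 53 in 133 and ATLANTYS 21 in 69 (30.4%). The class with the most gains, ATMU and ARNOLD (28 of 44, 63.6%), did not keep that lean. It had 11 gains in 23 (47.8%) where the authors' P-value was at most 0.001 and 8 in 19 (42.1%) where each library had 8 reads per cytosine or more. ATHILA elements thus had losses as the majority in CpG and gains in CpHpG and CpHpH.

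DMRs named 279 TE families. The Helitron ATREP3 had the most, 263 DMRs at 200 loci, with 89 gains and 133 losses in CpHpH. The copies of each family in the genome were not counted. ATHILA2 had 199, with 31 gains and 57 losses in CpG, 54 and 5 in CpHpG and 34 and 18 in CpHpH. HELITRONY3 had 145, with 56 gains and 66 losses in CpHpH, and ATHILA6A 114, with 19 and 28 in CpG, 40 and 6 in CpHpG and 11 and 10 in CpHpH. Both ATHILA families thus had mostly losses in CpG and mostly gains in CpHpG, whereas in CpHpH gains led in ATHILA2 and were near even in ATHILA6A. ATGP1, a Gypsy family, had 96 DMRs. Of the families that the study names beside its methylation results for these regimes, chosen on these libraries, 4 had DMRs and ATIS11A was named at 0. The study reports lost methylation for ATIS11A, ATGP3, ATLANTYS1 and VANDAL20 and gained methylation for TA11, at TEs that also changed in expression. The counts here cover whole families and are not a like comparison. ATGP3 had 9 gains and 0 losses in CpHpG, ATLANTYS1 had 22 and 1, TA11, a LINE, had 13 and 1, and VANDAL20 had 5 and 2. Gains made up 78.6% of all CpHpG DMRs. In CpG, ATGP3 had 3 gains and 3 losses, ATLANTYS1 11 and 25, TA11 5 and 5, and VANDAL20 2 and 3. In CpHpH the numbers were 4 and 3, 10 and 6, 12 and 17, and 5 and 6, in the same order.

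Single TE copies were often mixed. Of 314 TE loci with at least 2 CpHpH DMRs, 49 held gains alone, 69 held losses alone and 196 held both. In CpG the corresponding numbers were 9, 32 and 60 of 101 loci. CpHpG had the fewest mixed loci, with 60 all-gain, 4 all-loss and 24 mixed loci of 88. Gains made up 80.1% of all CpHpG DMRs in TEs, against 40.9% in CpG and 44.0% in CpHpH. Such a lean by itself lowers the number of mixed loci, so uniformity of single copies does not follow. The TE with the most DMRs was AT1TE56135, a VANDAL4 element on chromosome 1, with 8. Its 2 CpG DMRs were losses, 3 of its 4 CpHpG DMRs were gains, and its CpHpH DMRs were a gain and a loss. The ATGP1 copy AT1TE53995 had 5 gains and 1 loss, and the ARNOLD3 copy AT3TE70590 had 4 and 2. AT4TE10210 (VANDAL7) and AT4TE10490 (VANDAL18) had 3 and 3 each.

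Among gene loci, AT5G39770 had the most DMRs, with 6 in introns, some of them in ATLANTYS remnants and some with no TE named. Its CpG DMR was a loss, from 71 of 75 methylated reads in SQH to 54 of 74 in FLH, and its CpHpG DMR and 4 CpHpH DMRs were gains. AT5G19165, in a copy of ATCOPIA90, had 5 gains, all of them in CpHpG and CpHpH. AT4G26360, in an ATLINE2 region, had 3 gains and 2 losses within 2 kb of each other. There, 2 CpHpG DMRs inside the annotated TE were losses (45 of 59 to 22 of 54 and 65 of 82 to 56 of 104), and 2 next to it were gains (34 of 67 to 56 of 73 and 17 of 96 to 44 of 80). AT1G37060 and AT1G43444, both pericentromeric and within TEs, had 4 each.

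Within TEs, position relative to genes also went with direction in the non-CpG contexts. Loci that carry no coding sequence in RefSeq, whose types were not counted, held 378 CpHpH DMRs with a named TE. Of these, 59.3% were gains (interval 54.2 to 64.1). Among CpHpH DMRs in TEs between genes, 42.0% of 1401 were gains, and in TEs within 1 kb upstream of a gene, 40.6% of 579. CpHpG in TEs had 85.3% gains of 529 in loci without a coding sequence, 74.4% of 285 between genes and 61.4% of 44 in promoters. In both contexts the intervals between genes and in promoters overlapped. Where no TE was named, the order was not kept. In the same sequence of places, gains were 76.6%, 73.5% and 75% in CpHpG and 54.1%, 44.2% and 47.3% in CpHpH. The parts of TE class and of place on the chromosome in these shares were not tested. By count, with no base of all bins, CpG DMRs outside TEs lay mostly in gene bodies. There were 418 in coding exons (42.6% gains), 185 in introns (45.9%) and 36 in untranslated exons, beside 77 in promoters (50.6%) and 208 between genes.

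The gene-body CpG DMRs, 639 in 626 genes, comprised 277 gains and 362 losses. Their number differed along the gene. From the start of the gene to its end, 5 equal parts of the gene length held 45, 107, 168, 203 and 116 DMRs. How many bins, or methylated bins, each part holds was not counted. Losses led in each part but the first, where 51.1% were gains. The share of gains was 46.3% in the fourth and 37.1% in the last. Only 13 genes had more than 1 such DMR, and 6 of these were mixed. In all, the DMRs named 922 of 27444 protein-coding genes, which is 3.36%. Their 1009 DMRs comprised 457 gains and 552 losses. Neither a gene nor a TE was named at 1041 DMRs, of which 513 were gains.

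The genes that the study names beside its methylation results were picked on these libraries, and all 8 had losses in FLH. Losses also led over all DMRs of these contexts, with 42.4% gains in CpG and 44.7% in CpHpH. Some of the 8 were named for other comparisons, such as AT2G10940 for high against low light. In the MCCA intron, 53 of 59 reads were methylated in SQH (89.8%) and 42 of 66 in FLH (63.6%), a difference of -26.2 points (interval -39.4 to -11.4). The intron of AT1G27880 went from 38 of 44 (86.4%) to 33 of 58 (56.9%), a difference of -29.5 points. CRD1 (AT3G56940), which encodes an enzyme of chlorophyll synthesis, had 35 of 88 reads methylated in SQH and 11 of 67 in FLH in a coding exon. VTC2 (AT4G26850), which encodes a rate-controlling enzyme of ascorbate synthesis, went from 27 of 64 to 14 of 79. These 4 losses left methylation in FLH, at a higher level in the introns than in the exons. AT2G10940 went from 45 of 104 to 28 of 129 in a coding exon. ESP (AT1G54040), which steers glucosinolate breakdown, had a loss in 2 contexts in a bin that overlaps an ATREP1 Helitron, from 65 of 85 to 47 of 86 in CpG and from 61 of 187 to 42 of 216 in CpHpH. For RKF2 (AT1G19090), a receptor-like kinase gene, the DMR lay just beyond the RefSeq gene end and went from 60 of 286 to 34 of 341 in CpHpH. AT3G58730 is described above.

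Lists of genes of DNA methylation, loci controlled by methylation, light perception, the clock, photosynthesis, photoprotection, antioxidants, stomata and leucine breakdown held 163 genes. They were chosen with earlier results of these data known. DMRs named 15 of the 163 (9.20%, against 3.36% of protein-coding genes, which is also the base for each list below). Among the 15 are MCCA, CRD1 and VTC2, which the study picked on these libraries. AT5G17125, also among them, carries no coding sequence. The shares are therefore not a like comparison. The 16 DMRs of these genes were 7 gains and 9 losses. At a deposited P-value of at most 0.001 the DMRs named 5 of the 163 (3.07%), AT5G17125 among them, against 1.59% of protein-coding genes. Of the 16, 11 had a depth of 8 or more in each library and 7 lay within 5 points of the caller's minimum.

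Of 42 genes of DNA methylation and demethylation, 3 had a DMR, all in CpG. ROS1 (AT2G36490, DML1 in RefSeq) had 5 of 78 reads methylated in SQH and 18 of 68 in FLH in a coding exon. DML2 (AT3G10010) went from 20 of 33 to 9 of 42 in an intron. VIM3 (AT5G39550), a partner of MET1, went from 45 of 75 to 67 of 81 in a coding exon. One demethylase gene thus had a gain and another a loss. Of 9 loci known to be controlled by methylation, ROS1 and AT5G17125, the latter in the ATCOPIA93 element AT5TE20395, had gains. AT5G17125 had 37 of 63 and 54 of 61 reads methylated in CpG, and 6 of 62 and 19 of 41 in CpHpG.

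Photoreceptors and light signalling had 4 of 25 genes with a DMR, 2 gains and 2 losses. The blue-light receptor gene CRY1 (AT4G08920) had a CpG gain in an intron, from 55 of 104 reads in SQH to 72 of 90 in FLH. CRY2 (AT1G04400), its paralogue, had a CpG loss in a coding exon, from 43 of 70 to 24 of 68. The 2 cryptochrome genes thus moved in opposite directions. PHOT1 (AT3G45780), a blue-light receptor of phototropism and chloroplast movement, had a CpHpH loss at a RathE2_cons element in an intron, from 68 of 214 to 58 of 334. PIF7 (AT5G61270), a transcription factor that phytochrome binds, had a CpG gain in an intron, from 18 of 79 to 41 of 85. One of 16 clock genes, GI (AT1G22770), went from 54 of 65 to 37 of 65 in CpG.

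Photosynthesis and photoprotection had 3 of 36 genes with a DMR, and all 3 were CpG losses in coding exons. LHCB5 (AT4G10340), a minor antenna protein of photosystem II, went from 39 of 115 reads in SQH to 9 of 85 in FLH. LHCA2 (AT3G61470), an antenna protein of photosystem I, went from 84 of 135 to 64 of 161, and CRD1 is given above. Among 23 antioxidant, photorespiration and anthocyanin genes, VTC2 had its CpG loss and TT8 (AT4G09820), a regulator of anthocyanin synthesis, a CpHpG gain at an ATREP10D Helitron in an intron, from 1 of 34 to 23 of 71. None of 10 stomatal development genes had a DMR, and of 4 genes of leucine breakdown MCCA alone did. With 3.36% of protein-coding genes named, lists this short say little, and the study picked MCCA on these libraries.

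**Figure D4:**
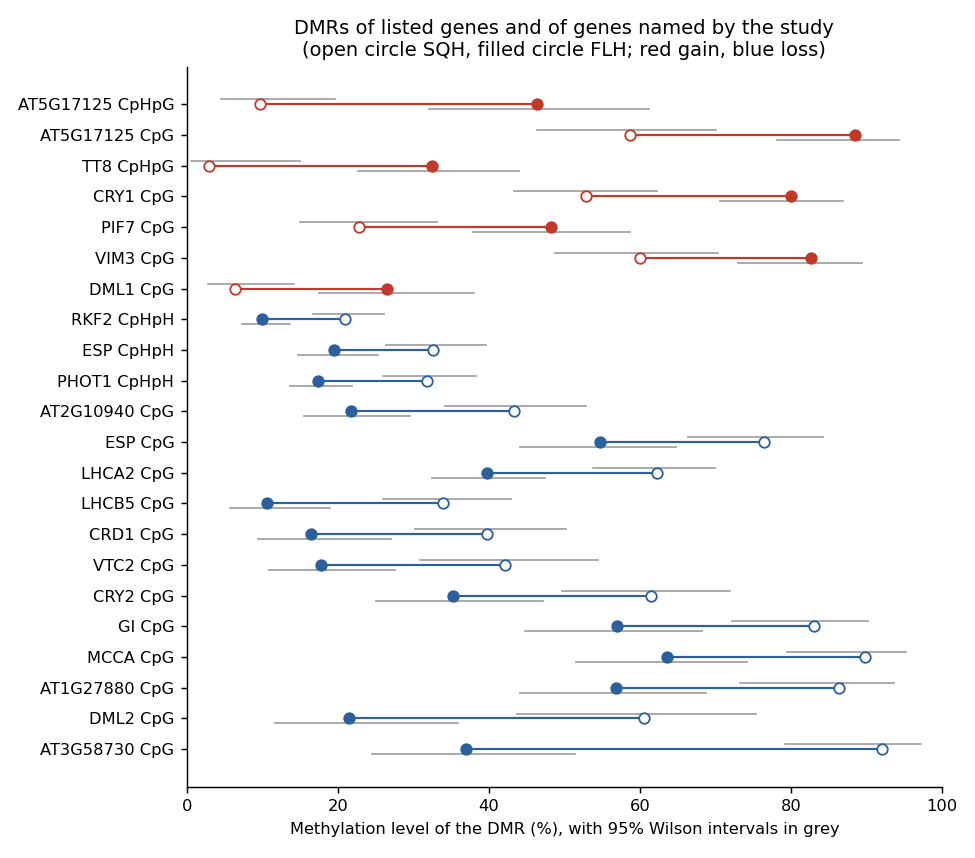
Methylation level (x axis, percent) in SQH and FLH at the DMRs of the genes that the study names and of the listed genes (y axis), with 95% Wilson intervals for counting error. The DMRs of all study-named genes have the lower level in FLH, and the listed genes have 7 gains and 9 losses. Over all DMRs, gains are 42.4% in CpG, 78.6% in CpHpG and 44.7% in CpHpH.

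Where DMRs of different contexts fell on the same bases, their directions were mostly alike. CpHpG and CpHpH shared 112 places and had the same direction in 110, CpG and CpHpG in 34 of 36, and CpG and CpHpH in 35 of 38. Such places were few, at 9.83% of the CpHpG and 3.40% of the CpHpH DMRs for the most frequent pair. In 5 bins all 3 contexts had a DMR, with 4 gains and 1 loss. At the RathE3_cons element upstream of ATHB-15, CpG went from 18.2% in SQH to 52.9% in FLH, CpHpG from 17.2% to 42.6% and CpHpH from 5.74% to 37.8%. At AT1G60987 (chr1:22460251-22460400), CpG went from 13.5% to 54.9%, CpHpG from 9.43% to 44.9% and CpHpH from 4.73% to 26.2%. These 2 bins were low in every context in SQH. The ATREP10B copy AT1TE18295 and the ATHILA2 copy AT3TE50655 had high CpG levels in both regimes, going from 73.3% to 96.7% and from 67.5% to 90%. The loss was at AT4TE44420, an ATDNAI27T9A element, where CpG went from 74.5% to 43.8%, CpHpG from 42.4% to 10.3% and CpHpH from 23.4% to 12.7%.

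Neighbouring DMRs were less uniform. Joined within 1 kb, the 6554 DMRs formed 5384 clusters, and 943 held at least 2 DMRs. Of these, 269 held gains alone, 203 losses alone and 471 both. The longest cluster, chr1:22164001-22167000, spanned 3000 bp over HELITRONY3 and VANDAL22 copies, with 2 gains and 3 losses in CpHpH. The next, chr3:1965251-1967950, spanned 2700 bp with 1 gain and 4 losses and named no gene or TE. The third, chr3:13663001-13665550, spanned 2550 bp of ATHILA6A and ATCOPIA65 copies and held 1 CpG loss and 3 CpHpG gains. Picked after their values were seen, 2 clusters of 5 held losses alone. They were chr2:5735801-5737600, over an ATIS112A copy and AT2G13770, and chr4:9797801-9799600, which includes AT4TE44420.

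The square and fluctuating patterns were also compared at low light (SQL and FLL, mean 230 µmol m-2 s-1), with 8479 DMRs from libraries that share no DNA with SQH and FLH. In CpG, 145 of the 2130 high-light DMRs (6.81%) were called at the same place at low light. In CpHpG 38 of 1129 were (3.37%), and in CpHpH 593 of 3295 (18.0%). These were 4.06%, 2.77% and 16.8% of the low-light DMRs. The low-light comparison listed 3574 CpG, 1373 CpHpG and 3532 CpHpH DMRs. Bins with at least 4 cytosines of the context numbered 598811, 625705 and 793111. The shares called again were thus above the low-light called share of all bins. How they compare with the share of methylated bins was not tested. Directions at the shared places have to be read beside those of each whole comparison. Gains made up 82.8% of all low-light DMRs in CpHpG, 73.3% in CpHpH and 22.4% in CpG, against 78.6%, 44.7% and 42.4% at high light. In CpHpG, where gains were the large majority in both comparisons, 33 of 38 had the same direction, and 32 of these were gains. Where each library had 8 reads per cytosine or more, 4 of 7 did. In CpHpH, 310 of 595 pairs had the same direction (52.1%). Losses at high light that were gains at low light numbered 223 and the reverse 62, in the direction of the higher share of gains over all low-light CpHpH DMRs. In CpG, 52 of 145 had the same direction (35.9%, interval 28.5 to 43.9), with 54 going from a gain at high light to a loss at low light and 39 the reverse. The same direction was found at 23 of 90 CpG DMRs outside TEs and at 29 of 55 in TEs. Classes of TE were uneven and held few pairs, such as 10 of 13 in ATREP Helitrons, 5 of 9 in ATHILA, 2 of 7 in HELITRON-named families and 0 of 4 in ATMU and ARNOLD. In CpHpH, the most frequent classes had the same direction at 86 of 175 (ATREP), 22 of 54 (HELITRON-named families), 27 of 47 (CACTA, hAT, Harbinger and similar) and 13 of 34 (ATMU and ARNOLD), and DMRs with no TE name at 106 of 175.

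**Figure D5:**
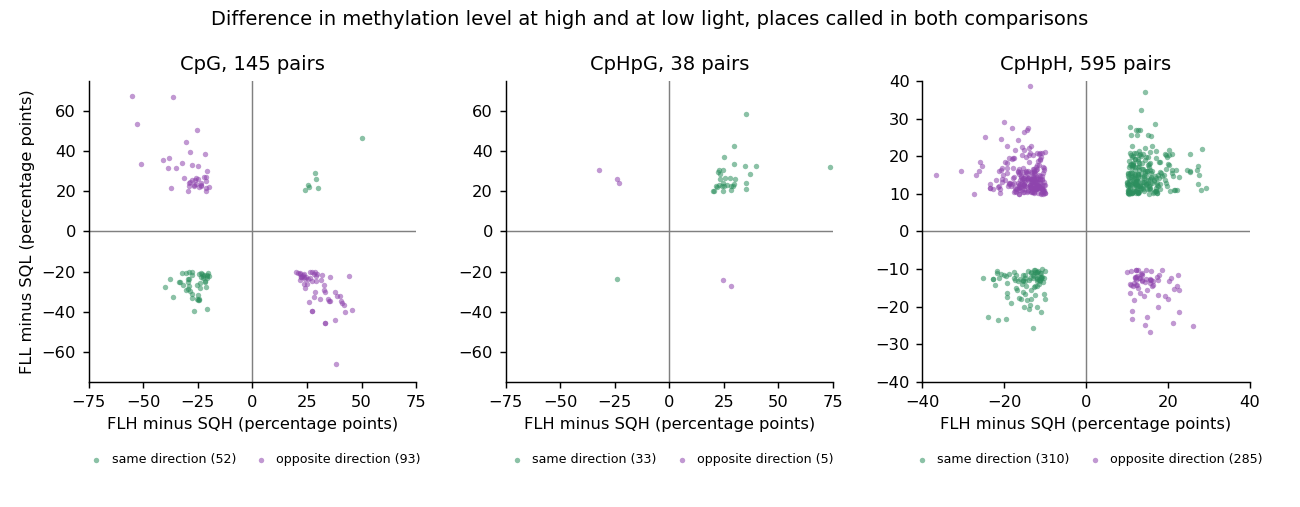
Difference in methylation between the fluctuating and the square pattern at high light (FLH minus SQH, x axis, percentage points) against that at low light (FLL minus SQL, y axis, percentage points) for DMRs called in both, 1 panel per context. Points in the upper left and lower right quadrants have opposite directions, as 93 of 145 do in CpG and 5 of 38 in CpHpG.

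Of the DMRs named above, those in AT1G27880 and CRD1 were losses at both light levels. AT1G27880 went from 82.1% in SQL to 58.3% in FLL, and CRD1 from 40.7% to 18.2%. The chromosome 5 CpG gain went from 22.7% to 69.2%, the CpHpH gain in the promoter of AT3G46430 from 13.8% to 34.5%, and that at AT4TE13910 from 22.9% to 39.2%. The AT3G58730 exon had the opposite direction, with 10 of 45 reads methylated in SQL (22.2%) and 54 of 60 in FLL (90%). It was thus high in SQH and FLL and low in FLH and SQL. MCCA was listed at low light at another place, chr1:742351-742500, where 25 of 40 reads were methylated in SQL (62.5%) and 32 of 32 in FLL. That was a gain of 37.5 points, opposite to the loss at high light, and the places did not overlap. In CpHpH, RKF2 (11.5 points) and ESP (-11.2 points) were also listed at low light, at places that did not overlap those at high light. The paper describes the position of the MCCA DMR as kept at both intensities, which the listed MCCA DMRs do not show.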

How the data were processed

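The authors aligned reads to TAIR10. The submitters' processing notes name Trimmomatic 0.39, Bismark and Bowtie2. Per the study's methods, DMRs were called between pairs of regimes by DMRcaller, which cut the genome into bins of 150 bp and kept those holding 4 or more cytosines, covered by 4 or more reads each, whose P-value passed 0.01 and whose levels differed by 0.2 (CpG, CpHpG) or 0.1 (CpHpH). The deposited table gives for each region and library the counts of methylated and of all reads, summed over cytosines. The authors' own fractions (levels) and direction columns were not used, and their p-value was used only as a filter in an alternative. No column of per-sample values was left out other than these.

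Levels and differences were computed from the counts in Python 3.11.15 (numpy 2.4.6, pandas 2.3.3, matplotlib 3.10.9). Which library each pair of columns holds was checked through shared regions, where the tables held the same FLH reads at 1210 of 1210 and the same SQH reads at 874 of 874. The number of cytosines matched TAIR10.1 at 6554 of 6554 regions. Features, windows and sequences came from the RefSeq annotation of TAIR10.1 and were assigned at a region's midpoint, and a promoter was the 1 kb upstream of a gene. TE names are those of the deposited table. Read depth per region sets the intervals (95% confidence), and a level of 0 is limited by 3 reads. The scripts were tested on simulated data with known answers.

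The regions, gene lists and TE groups were chosen with earlier results of these data known. Named were the 5 largest differences per context and direction among regions covered 8 or more times per cytosine in each library, the 5 genes and 5 TEs with most regions, the most frequent TE families, the genes and families that the study names, every listed gene with a region, and the 3 longest clusters. Alternatives were a P-value of at most 0.001, at least 8 reads per cytosine, a CpG minimum of 40 points, windows below 0.25 times the median gene number, exact instead of overlapping bins, joining within 1 kb, TE names by locus and 1 region per TE locus. Those on TE groups, on CpHpG by place and on the gene lists were added after seeing the data.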

Additional observations from a re-analysis of the deposited data

Results flagged for a closer look

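The CpG DMR in the coding exon of AT3G58730 had opposite directions under the same change of light pattern. FLH minus SQH was -55.1 points at high light and FLL minus SQL was 67.8 points at low light. The levels were 92.1% in SQH, 37.0% in FLH, 22.2% in SQL and 90% in FLL. Opposite directions were common in CpG, since only 52 of the 145 CpG DMRs called at both light levels had the same direction. Outside TEs 23 of 90 did. With 1 library per regime, the difference between the light levels was not tested.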

How the results depend on the processing

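Of 90 alternative values, 51 stayed within the counting interval of the value they replace (for counts, within 1.5 times), 37 moved beyond it and 2 turned direction. The cause of a move was not tested. With a P-value of at most 0.001, there were 860 CpG and 429 CpHpG DMRs. Gains were 39.1% in CpG and 83.4% in CpHpG, 87.7% in the pericentromeric CpHpG DMRs, 78.6% on the arms and 94.9% in CpHpG ATHILA. TEs were named at 73.9% of the CpHpG DMRs, the pericentromeric share was 53.1% in CpHpG and 21.7% in CpHpH, and 6 of 6 CpHpG DMRs (100%) had the same direction at low light. Listed genes fell to 5. With at least 8 reads per cytosine there were 811 CpG, 242 CpHpG and 691 CpHpH DMRs. TE shares were 36.0%, 69.4% and 70.3%, and pericentromeric shares 24.7%, 53.7% and 13.0%. The same direction at low light was found for 24.3% in CpG (17 of 70), 57.1% in CpHpG (4 of 7) and 60.7% in CpHpH (54 of 89). CpHpH ATMU and ARNOLD gains were 40.4%. CpG ATMU and ARNOLD turned to losses under both, at 47.8% and 42.1% gains. Shared bins of CpHpG and CpHpH had the same direction at 25 of 25. With a CpG minimum of 40 points, 94 CpG DMRs were left, with 44.7% gains, 48.9% in TEs and 29.8% pericentromeric. Of only 4 pairs with a low-light DMR that also met this minimum, 1 (25%) had the same direction. Contexts shared a direction at 5 of 5 and 4 of 4 bins (100%). With the stricter windows, which hold 8.81% of the genome, the pericentromeric shares were 28.0% in CpG, 38.7% in CpHpG and 7.71% in CpHpH, and 86.5% of pericentromeric CpHpG DMRs were gains. Exact bins, joining, TE names by locus and 1 region per TE locus moved none. No paired analysis was possible because each regime has 1 library.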
